A study of Mus musculus with 8 samples.

Results

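The 10 genes described here, Gbp2, Gbp3, Gbp5, Gbp7, Gbp9, Irgm1, Irgm2, Igtp, Iigp1 and Tgtp2, encode interferon-inducible GTPases of the guanylate-binding protein (GBP) and immunity-related GTPase (IRG) families, and are 10 of the 55357 genes in the count table. They were selected on membership of these families when their levels in the So(d18:1) and control libraries were already known, so their differences between the groups are given as a description. Where a call from the fit over all genes is named for them, it was made on values known when they were chosen and is not independent evidence. Poly(A) RNA was sequenced from bone marrow-derived macrophages (BMDM) of C57BL/6J wild-type mice grown with M-CSF, a growth factor that drives marrow cells to become macrophages. There were 4 libraries from cells given So(d18:1), the sphingoid base sphingosine, at 2 μM for 6 h, and 4 control libraries from cells given its methanol vehicle for the same time. The sample labels name no inflammatory stimulus, whereas the text of the study places the cells under inflammatory stimulation, so it is not settled whether both groups also received one. The labels do not say whether the libraries of a group came from separate mice, and the spread between them may therefore be technical.

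GBP and IRG proteins are induced in macrophages by interferon-γ and, less strongly, by type I interferons, through promoter sequences called GAS and the interferon-stimulated response element (ISRE), the latter bound by factors such as IRF1. GBPs assemble on pathogen vacuoles and on the surface of cytosolic bacteria, and the GBPs encoded on mouse chromosome 3 are known for promoting caspase-11 and AIM2 inflammasome responses. Among the IRGs, Irgm1, Irgm2 and Igtp are regulators that stay on host membranes and keep effector IRGs, such as the products of Iigp1 and Tgtp2, inactive until these load onto pathogen vacuoles.

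RefSeq promoters (GRCm38.p6, 250 bases before to 50 after the transcription start) were taken by symbol and used for 8 of the 10 genes. Promoters hold the elements through which interferons are known to act on these families. Gbp9 and Iigp1 were left out of this search, so the matches and shares given here do not cover them. The ISRE was searched as GAAA, any pair of bases and GAAA again, and the GAS as TTC, any 3 bases and GAA, on both strands, and no GAS match overlapped an ISRE match. The stretches around the ISRE matches, with any GAS beside them, follow, 5′ to 3′ on the gene's own strand, with the matched bases in capitals. Each GBP has its ISRE in the reverse orientation, which reads TTTC, any pair of bases and TTTC.
Gbp5, chr3:142496757-142496790, plus strand: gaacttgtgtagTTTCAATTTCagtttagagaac
Gbp7, chr3:142530218-142530304, plus strand: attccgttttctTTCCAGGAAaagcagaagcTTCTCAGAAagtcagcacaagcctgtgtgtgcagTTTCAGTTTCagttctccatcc
Gbp3, chr3:142559987-142560026, plus strand: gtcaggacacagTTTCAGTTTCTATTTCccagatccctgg
Gbp2, chr3:142620592-142620625, plus strand: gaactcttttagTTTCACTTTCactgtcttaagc
Irgm1, chr11:48871423-48871462, minus strand: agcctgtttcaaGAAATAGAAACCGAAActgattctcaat
Tgtp2, chr11:49064261-49064305, minus strand: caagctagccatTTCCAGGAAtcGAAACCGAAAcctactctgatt
Igtp, chr11:58199499-58199543, plus strand: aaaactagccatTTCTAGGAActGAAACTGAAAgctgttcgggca
Irgm2, chr11:58214890-58214934, plus strand: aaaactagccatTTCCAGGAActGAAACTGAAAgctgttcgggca

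An ISRE match was found in all 8 of these promoters, against 3.44% of the 32851 promoters in the table. A GAS match was found in 5 of them (Gbp5, Gbp7, Tgtp2, Igtp and Irgm2), against 8.3% of all promoters, those of Gbp5 lying outside the stretch printed, and both motifs together occurred in 0.454% of all promoters. The 8 genes were chosen as interferon-inducible and some promoters are near copies, so these shares are a description of the family. In Tgtp2, Igtp and Irgm2 the GAS and the ISRE lie side by side, with 11 bases between their first bases. Gbp3 and Irgm1 hold overlapping pairs of ISRE matches, and a second Gbp3 promoter in the table holds no match. A match shows only that the letters are present and says nothing of which factor was bound in these cells.

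**Figure D1:**
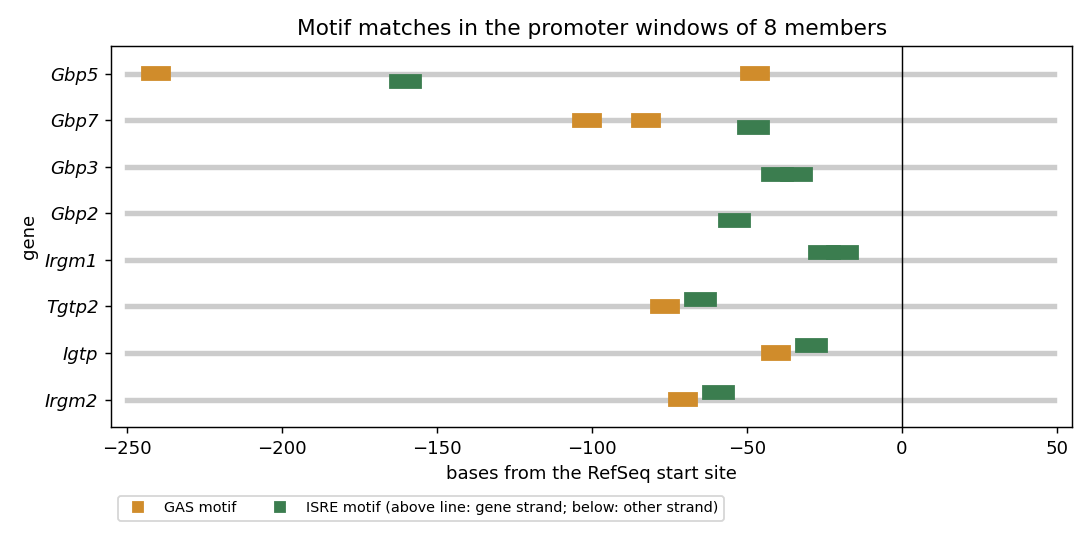
Positions of ISRE and GAS matches in the RefSeq promoters, in bases from the transcription start (x axis), with 1 row per gene, GAS matches in orange and ISRE matches in green, drawn above the line for the gene strand and below it for the other strand. The GBP promoters hold the ISRE on the opposite strand, and in Tgtp2, Igtp and Irgm2 the ISRE begins 11 bases after the first base of the GAS.

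Between 17748397 and 26088609 reads per library were counted on genes, and 14514 genes had enough counts to be tested with edgeR, all 10 GTPase genes among them. Csf1r, the M-CSF receptor and a defining macrophage gene, had a level of 6234 ± 98.2 CPM (counts scaled to a common library size) in control and 5986 ± 298 CPM in the So(d18:1) libraries (mean ± SD, n = 4). The 8 neutrophil marker genes summed to between 1682 and 2325 CPM in control and between 1325 and 1506 CPM in the So(d18:1) libraries. Of these 8 genes, 4 passed the test as lower, against 5.07% of all tested genes. The 9 markers of T and NK cells, which are a source of interferon-γ, summed to between 20.6 and 25.6 CPM in control and between 13.9 and 18.9 CPM in the So(d18:1) libraries. Nearly all of this sum was Cd4, at 22.9 ± 2.26 and 17.1 ± 2.35 CPM, which was called lower. The other 8, the CD3 genes among them, had between 0 and 5 counts in each library and were not tested. The sum is therefore a value for Cd4 and is not read as a level of T and NK cells. Of the 8 macrophage markers, Csf1r among them, 7 had a negative log2 fold change, with a median of -0.14 over the list. Mertk (-0.38) and Cd68 (-0.22) were called lower (edgeR, adjusted p = 6.2e-06 and 0.00349). All 6 B cell markers tested had a negative log2 fold change (median -0.81), and Pax5 was called lower (-1.26, edgeR, adjusted p = 0.0298). Of the erythroid and megakaryocyte markers 2 were tested, of which Pf4 was higher by 0.76 on the log2 scale and Itga2b was at -0.61 and did not pass the test (edgeR, adjusted p = 0.149). The part of these other cells in the GTPase levels was not tested. In bulk RNA, fewer cells of a type and less RNA per cell cannot be told apart.

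Some libraries stood apart for these genes before any group comparison. Control replicate 4 was the lowest control for 8 of the 10 genes and So(d18:1) replicate 3 the highest So(d18:1) library for 9 of 10. Averaged over the 10 genes, control replicate 4 lay 0.23 below its group mean on the log2 CPM scale and So(d18:1) replicate 3 lay 0.21 above its own. The type I interferon targets, a separate list of 24 tested genes, moved with the same libraries, at -0.24 in control replicate 4 and 0.30 in So(d18:1) replicate 3. Both libraries act to widen the difference between the groups, so values without both of them are given beside the main ones. Both were picked on these same values, so leaving them out narrows the mean difference of the 10 genes by construction. With fewer libraries a call is also harder to reach, so a call lost this way is not a test of that gene.

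The 10 genes lie in 5 stretches of the mouse genome (GRCm38). Gbp5, Gbp7, Gbp3 and Gbp2 lie in this order between 142493978 and 142638008 on chromosome 3, all on the plus strand, and Gbp9 lies at 105077630 to 105139539 on chromosome 5. Irgm1 (48861968 to 48871683) and Tgtp2 (49057194 to 49064206) share one stretch of chromosome 11, and Igtp and Irgm2 overlap in another, from 58199556 to 58222782. Iigp1 lies on chromosome 18, at 60376027 to 60392634. Several counts are uncertain because the sources used here do not state how reads on overlapping or repeated sequence were handled. Tgtp2 shares 86.6% of its transcript sequence with other genes, nearly all of it with Tgtp1, Gbp9 overlaps exons of Gbp4 and Gbp8, Igtp overlaps Irgm2, and Gbp7 overlaps exons of the predicted gene Gm43802.

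In control BMDM all 10 genes were expressed without added interferon, as far as the labels show. Per kb of exon, the highest levels were those of Gbp2 at 20.1 ± 2.41 CPM per kb and Irgm2 at 19.5 ± 2.29 CPM per kb (SD, n = 4), which did not differ beyond their spread. Irgm1 (14.8 ± 0.824 CPM per kb), Gbp3 (14.2 ± 1.75), Igtp (11.7 ± 0.959) and Gbp7 (10.98 ± 2.69) followed, and the range over the control libraries of each overlapped that of the next. A gap separated these from Gbp9 (4.77 ± 0.794 CPM per kb) and Gbp5 (4.04 ± 0.707), and the effectors Tgtp2 (2.73 ± 0.437) and Iigp1 (1.95 ± 0.346) came last. Among the 5 IRGs of the 10 genes, Irgm1, Irgm2 and Igtp each had a higher level per length than Tgtp2 and Iigp1 in all control libraries, with the count of Tgtp2 uncertain.

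In So(d18:1) libraries Gbp2 led with 32.2 ± 3.93 CPM per kb, followed by Irgm2 (23.0 ± 1.601 CPM per kb) and Gbp3 (22.01 ± 1.89). Gbp7 reached 16.8 ± 0.948 CPM per kb and now stood beside Irgm1 (15.7 ± 1.43) and Igtp (14.1 ± 1.49). Gbp5 stood at 5.97 ± 0.634 CPM per kb and Gbp9 at 4.89 ± 0.766, and Tgtp2 (2.85 ± 0.507) and Iigp1 (2.09 ± 0.615) stayed at the bottom.

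**Figure D2:**
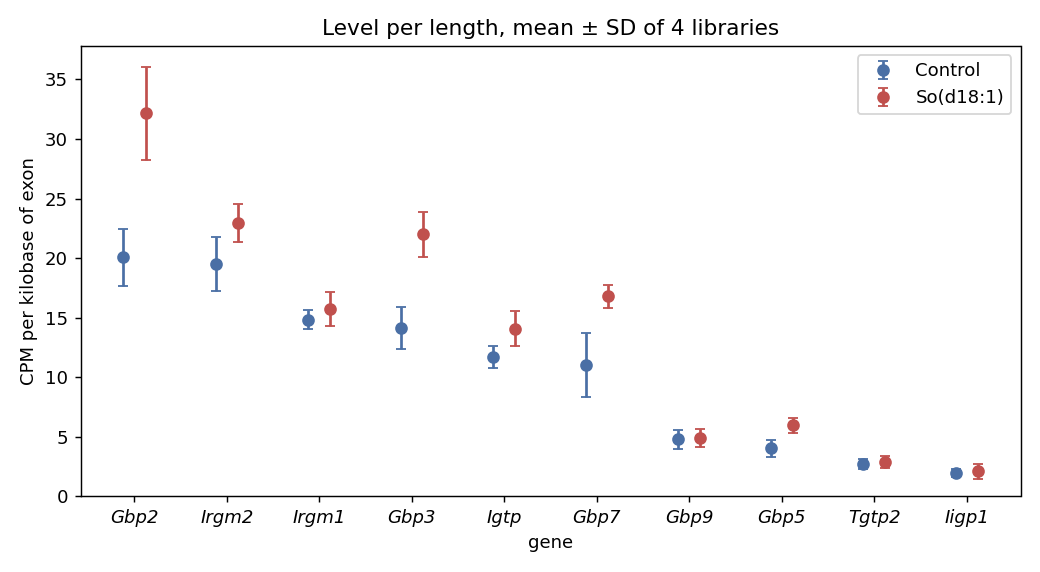
Level per exon length of the 10 genes (CPM per kb, linear axis from 0), in order of their control level, with points for the mean and bars for the SD of the 4 control (blue) and 4 So(d18:1) (red) libraries. Levels run from Gbp2, at 20.1 CPM per kb in control, down to Iigp1 at 1.95.

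Against control, all 10 genes had a positive log2 fold change in So(d18:1) libraries, with a median of 0.25 and a range from 0.03 to 0.68, where the median over all 14514 tested genes was 0.0036. By edgeR's quasi-likelihood test with Benjamini-Hochberg adjustment, 4 of the 10 were called higher (Gbp2, Gbp3, Gbp5 and Igtp) and none lower. Over all tested genes 8.94% were called, 3.87% as higher and 5.07% as lower. In 5 of the 10 (Gbp2, Gbp3, Gbp5, Gbp7 and Irgm2) every So(d18:1) library lay above every control library, which held for 7.14% of all tested genes, with 7.87% showing the opposite order. Because the genes were chosen with this comparison known, nothing is read from these counts. Without control replicate 4 and So(d18:1) replicate 3, an alternative added after seeing the data, the median log2 fold change was 0.15, 6 of the 10 values were positive, and Gbp2 and Gbp3 were still called.

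The chromosome 3 GBPs held the largest differences. Gbp2, which acts on vacuoles of Toxoplasma and on cytosolic bacteria, stood at 57.3, 51.0, 51.0 and 42.5 CPM in control replicates 1 to 4 and at 80.1, 72.4, 95.0 and 76.1 CPM in So(d18:1) replicates 1 to 4. Its groups lay well apart, with a mean 1.602-fold higher in So(d18:1) libraries (log2 fold change 0.68, SE 0.10). Gbp3, its neighbour, stood at 51.6, 50.4, 43.0 and 39.8 CPM in control and at 66.3, 70.9, 80.7 and 69.5 CPM in the So(d18:1) libraries. The Gbp3 groups did not overlap either, and the mean was 1.56-fold higher (log2 fold change 0.64, SE 0.083). Without control replicate 4 and So(d18:1) replicate 3, both genes were at a log2 fold change of 0.52 and were called. With 1 library left out, the log2 fold change lay between 0.60 and 0.75 for Gbp2 and between 0.57 and 0.70 for Gbp3.

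Gbp5, which is known for its part in NLRP3 and AIM2 inflammasome responses, stood at 31.4, 30.3, 22.8 and 22.7 CPM in control and at 43.7, 36.8, 42.6 and 35.3 CPM in the So(d18:1) libraries. Gbp7, a GBP that takes part in defence against bacteria and in recruiting oxidase subunits to vacuoles, stood at 76.4, 72.8, 47.3 and 50.1 CPM in control and at 95.8, 94.4, 99.8 and 87.1 CPM in the So(d18:1) libraries. For both genes control replicates 1 and 2 lay above control replicates 3 and 4, and every So(d18:1) library lay above all of the controls. Over all tested genes, too, these controls were more alike in pairs, with a chi-square per gene of 2.62 between replicates 1 and 2 and 3.51 between replicates 3 and 4, against 5.23 to 10.8 for the other control pairs. Gbp5 differed by a log2 fold change of 0.56 (SE 0.12) and was called. Gbp7 differed by 0.61 (SE 0.17), as much as Gbp5, and was not called, its control SD being 15.1 CPM around a mean of 61.7 against 5.32 CPM around 94.3 in So(d18:1) libraries. Gbp7 was called when control replicate 1 was left out, where its log2 fold change was 0.73. It was also called in 1 of 8 alternatives that kept all libraries and changed the scaling, filter, model or test. Without control replicate 4 and So(d18:1) replicate 3 the log2 fold changes were 0.45 for Gbp5 and 0.50 for Gbp7, and neither was called. By the rule of the study's methods, an unadjusted p under 0.05 with a fold change of at least 1.5, Gbp2, Gbp3 and Gbp7 were called and Gbp5 was not.

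**Figure D3:**
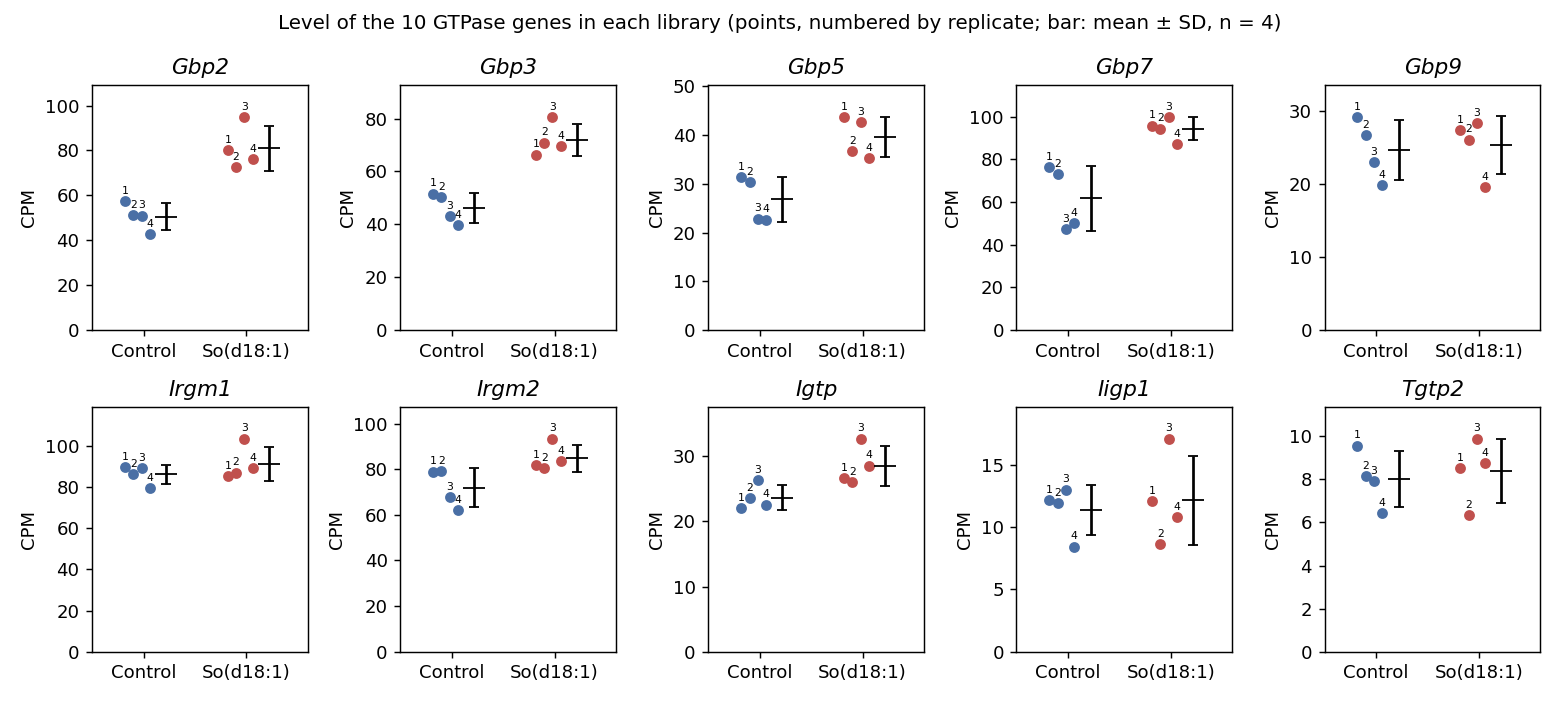
CPM of each of the 10 genes in the 4 control and 4 So(d18:1) libraries, 1 point per library, numbered by replicate, with the mean ± SD of each group beside the points. For Gbp2, Gbp3, Gbp5, Gbp7 and Irgm2 all So(d18:1) points lie above all control points, and for Gbp9, Irgm1, Igtp, Iigp1 and Tgtp2 the groups overlap.

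Gbp9, the only GBP of the 10 outside chromosome 3, stood apart from the other 4 GBPs. It stood at 29.2, 26.7, 23.0 and 19.8 CPM in control and at 27.4, 26.1, 28.3 and 19.5 CPM in the So(d18:1) libraries, and both group ranges covered nearly the same values. The log2 fold change was 0.03 (SE 0.14), and it was -0.12 without control replicate 4 and So(d18:1) replicate 3.

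Among the regulator IRGs, the differences were smaller than in the chromosome 3 GBPs. Irgm1, which is also known for its role in autophagy, stood at 89.7, 86.3, 89.4 and 79.4 CPM in control and at 85.5, 87.1, 103.6 and 89.4 CPM in the So(d18:1) libraries, with a log2 fold change of 0.08 (SE 0.059). Only So(d18:1) replicate 3 lay above all of the controls. Irgm2, which restrains noncanonical inflammasome activation, stood at 79.0, 79.0, 67.7 and 62.0 CPM in control and at 81.6, 80.4, 93.4 and 83.7 CPM in the So(d18:1) libraries. The Irgm2 groups did not overlap, though the lowest So(d18:1) value was close to the highest control value, and the log2 fold change was 0.24 (SE 0.076), not called. Igtp, needed for control of Toxoplasma, stood at 22.04, 23.6, 26.4 and 22.6 CPM in control and at 26.7, 26.0, 32.7 and 28.6 CPM in the So(d18:1) libraries. Its groups overlapped by a single library, So(d18:1) replicate 2, and the log2 fold change of 0.27 (SE 0.079) was called. The Igtp call was kept in 3 of 8 fits that left out 1 library, those without control replicate 3, So(d18:1) replicate 1 or So(d18:1) replicate 2, and its log2 fold change was 0.20 without So(d18:1) replicate 3. Irgm2 was called in 2 of those fits, without control replicate 1 or 2. In 8 alternatives that kept all libraries and changed the scaling, filter, model or test, Igtp was called in 8 and Irgm2 in 3. By the rule of the study's methods neither was called.

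The effectors Iigp1 and Tgtp2 did not differ beyond the spread between libraries. Iigp1, whose product attacks the Toxoplasma vacuole, stood at 12.1, 11.9, 13.0 and 8.42 CPM in control and at 12.1, 8.64, 17.1 and 10.8 CPM in the So(d18:1) libraries (log2 fold change 0.09, SE 0.21). Tgtp2, another effector of this kind, stood at 9.57, 8.16, 7.93 and 6.44 CPM in control and at 8.52, 6.33, 9.89 and 8.77 CPM in the So(d18:1) libraries (log2 fold change 0.06, SE 0.14). So(d18:1) replicate 3 was the highest library for both genes. Without control replicate 4 and So(d18:1) replicate 3 the log2 fold changes were -0.24 and -0.11. Summed over Tgtp1 and Tgtp2, which share most of their sequence, the level was 8.47 ± 1.26 CPM in control and 9.16 ± 1.63 CPM in the So(d18:1) libraries.

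Within a library, the chromosome 3 GBPs and the 5 IRGs were compared as the difference between their mean log2 CPM, a quantity whose size depends on gene length and is used only to compare libraries. It lay between 0.50 and 0.86 in control libraries and between 1.10 and 1.37 in So(d18:1) libraries, without overlap. The mean log2 CPM of the 4 GBPs differed by 0.63 between the groups and that of the 5 IRGs by 0.14. The groups were formed after the values were known, so the difference between the families was not tested.

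**Figure D4:**
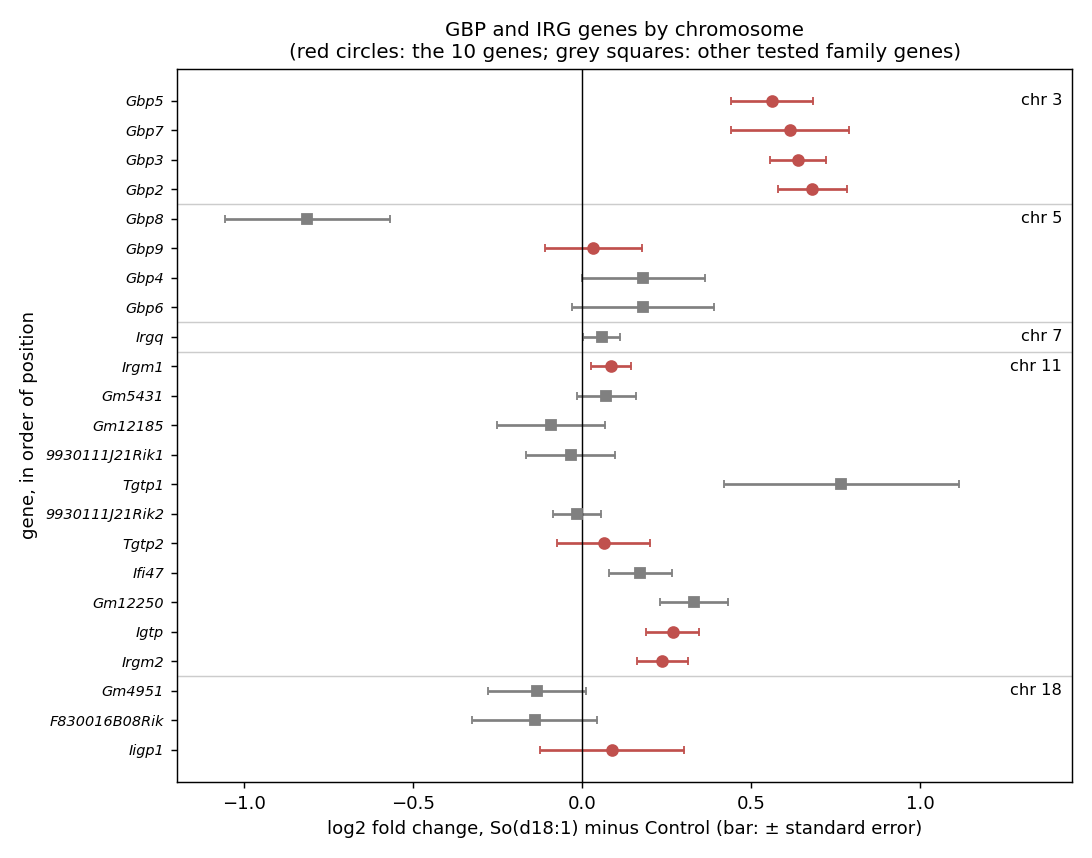
Log2 fold change of So(d18:1) against control for the tested GBP and IRG genes in order of position, with bars of 1 SE, red circles for the 10 genes and grey squares for the other family members. The 4 GBPs on chromosome 3 lie between 0.56 and 0.68, and Irgm1, Irgm2, Igtp, Iigp1 and Tgtp2 between 0.06 and 0.27.

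The other genes of the families were taken from a hand-written list, made with earlier results of these data known. Of the 6 other GBP genes, Gbp2b, Gbp10 and Gbp11 had too few counts to be tested, and 1 of the remaining 3 was called. It was Gbp8, which was lower, at 1.77 ± 0.408 CPM in control and 1.01 ± 0.0417 CPM in the So(d18:1) libraries (edgeR, adjusted p = 0.0402), against a background of 5.07% called lower. Gbp8 lies within the overlap with Gbp4 and Gbp9, and the call was lost in 8 of 17 alternatives, by limma-voom and without any 1 library other than control replicate 4. Gbp4 and Gbp6 had log2 fold changes of 0.18 each (SE 0.18 and 0.21). None of the 10 other IRG genes tested was called by edgeR or limma-voom, 1 was called by DESeq2, and 2 had an unadjusted p under 0.05. Over all tested genes 8.94% were called by edgeR, so in lists this short no difference from other genes is read from these counts. This holds also for the very large inducible GTPases below. Gm12250, which lies next to Igtp and Irgm2, stood at 18.7 ± 2.08 CPM in control and 23.5 ± 3.59 CPM in the So(d18:1) libraries, with all So(d18:1) libraries above the controls (edgeR, adjusted p = 0.0527). Tgtp1, the near copy of Tgtp2, had a log2 fold change of 0.77 (SE 0.35) from 0.444 ± 0.0902 CPM, and Ifi47 one of 0.17 (SE 0.094). The others were Gm5431 (0.07), Irgq (0.06), 9930111J21Rik2 (-0.02), 9930111J21Rik1 (-0.04), Gm12185 (-0.09), Gm4951 (-0.13) and F830016B08Rik (-0.14), and Irgc1 had too few counts to be tested. The median log2 fold change of these 10 was 0.02. Of the 5 very large inducible GTPases tested, none was called by edgeR, DESeq2 or limma-voom and none had an unadjusted p under 0.05. Their log2 fold changes were 0.15 for Gvin1, 0.02 for Gm4070, -0.00045 for Gm8995, -0.11 for Gm1966 and -0.13 for Gm8979. Gvin1 shares 98.3% of its transcript sequence with Gm4070, and Gm4070 95% with Gvin1, so their separate counts are uncertain. The annotation lists Gm8995, Gm1966 and Gm8979 as pseudogenes.

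Genes that flank the clusters were examined after the values were seen. At the chromosome 3 GBP cluster, Pdlim5 was at a log2 fold change of 0.01 and Kyat3 at 0.34 (SE 0.20), and at the chromosome 5 cluster Abcg3 was at -0.40 (SE 0.13) and Lrrc8b at 0.02. Beside the Irgm1 and Tgtp2 cluster, Trim7 was at 0.56 (SE 0.22) and Btnl9 at -0.41 (SE 0.51). Beside Igtp and Irgm2, Mrpl22 was at 0.33 (SE 0.10) and 4930438A08Rik at -0.57 (SE 0.24). Their adjusted p by edgeR ran from 0.0565 for Mrpl22 to 0.915 for Pdlim5.

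The pathway upstream was described from hand-written lists, from ligand to target. These lists were made with earlier results of these data known, so calls among their genes are not independent evidence. Over all tested genes 8.94% were called, 3.87% as higher and 5.07% as lower. Ifng, which encodes interferon-γ, had 0 counts in all 8 libraries, where 3 counts would correspond to between 0.116 and 0.168 CPM. Of the 6 ligand and receptor genes tested, Ifngr1, a subunit of the interferon-γ receptor, was higher at 441 ± 23.4 CPM in control and 489 ± 20.6 CPM in the So(d18:1) libraries (edgeR, adjusted p = 0.0461). Il10rb, a subunit shared by receptors for IL-10 and interferon-λ, was lower, with a log2 fold change of -0.18 (edgeR, adjusted p = 0.0139). Of 17 alternatives, the Ifngr1 call was kept in 7, and of the libraries left out singly only without control replicate 2, and the Il10rb call in 15, lost without control replicate 3 or So(d18:1) replicate 1.

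Of the 13 signal transducers tested, 1 was higher and 1 lower. Irf1, the transcription factor that binds the ISRE of GBP promoters, stood at 94.7 ± 7.35 CPM in control and 112 ± 6.04 CPM in the So(d18:1) libraries, which differed by 0.24 on the log2 scale (SE 0.055, edgeR, adjusted p = 0.00693). It was not called without control replicate 4 and So(d18:1) replicate 3 (log2 fold change 0.22, SE 0.068, edgeR, adjusted p = 0.0717). Ciita, the transactivator of MHC class II genes, was lower, with a log2 fold change of -0.65 (SE 0.12, edgeR, adjusted p = 0.00153). Of the 7 signal inhibitors tested, none was called by edgeR, DESeq2 or limma-voom, and 1 had an unadjusted p under 0.05. With 8.94% of all tested genes called by edgeR, nothing is read from these counts.

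Targets of interferon-γ other than the GTPases were called in 6 of 15 tested genes, 5 of them higher. Over all tested genes 8.94% were called and 3.87% were higher. Of the 15, 4 had a negative log2 fold change, the lowest being H2-Ab1 at -0.82 (SE 0.27), which was not called. Ly6a, a surface protein, was higher by a log2 fold change of 1.57 (edgeR, adjusted p = 6.74e-10). Tap1 and Tap2, which pump peptides for MHC class I loading, were higher by 0.22 and 0.28, and Psmb9 and Psmb10, subunits of the immunoproteasome, by 0.26 and 0.21 (edgeR, adjusted p between 0.00172 and 0.0102). Slamf8, a myeloid receptor, had a log2 fold change of -0.45 (edgeR, adjusted p = 0.0452) and lost its call in 8 of 17 alternatives, without any 1 library other than So(d18:1) replicate 4 and without both control replicate 4 and So(d18:1) replicate 3. With both of those left out, Tap1, Psmb9 and Psmb10 were not called either (adjusted p between 0.0581 and 0.0706). Of the 24 type I interferon targets tested, 1 was called, Oas3, a sensor of double-stranded RNA, with a log2 fold change of 0.46 (SE 0.11, edgeR, adjusted p = 0.0298), lost without control replicate 3 or So(d18:1) replicate 2. The median of the type I list was 0.15 and that of the GTPases 0.25, and 19 of the 24 had a positive value.

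The partners of the proteins were also listed. These were 15 ubiquitin-like conjugation genes that position GBP and IRG proteins, 5 genes listed under prenylation and 9 inflammasome genes downstream. None was called by edgeR, DESeq2 or limma-voom, and 3, 1 and 2 genes of these lists, in that order, had an unadjusted p under 0.05. Over all tested genes 8.94% were called by edgeR. The share of all genes with an unadjusted p under 0.05 is not given here, so nothing is read from these counts. Casp4, which encodes caspase-11, stood at 20.04 ± 2.08 CPM in control and 22.1 ± 0.857 CPM in the So(d18:1) libraries, and Aim2 at 62.5 ± 3.36 and 63.9 ± 2.32 CPM (edgeR, adjusted p = 0.305 and 0.771).

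Within the groups the 10 genes varied together, measured as each library's deviation from its own group mean, which takes the group difference out. Over 45 pairs of genes the median correlation of the deviations was 0.71, with a range from -0.29 to 0.97, over 8 points, each a library in which both genes share depth and preparation. The highest pair was Gbp3 with Irgm2 at 0.97, on different chromosomes, and the lowest was Gbp7 with Igtp at -0.29. Against the mean of the other 9 genes, Gbp2 (0.96) and Irgm2 (0.93) followed most closely and Igtp (0.31) least. Pairs among the chromosome 3 GBPs had a median of 0.78 and pairs among the IRGs one of 0.74.

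**Figure D5:**
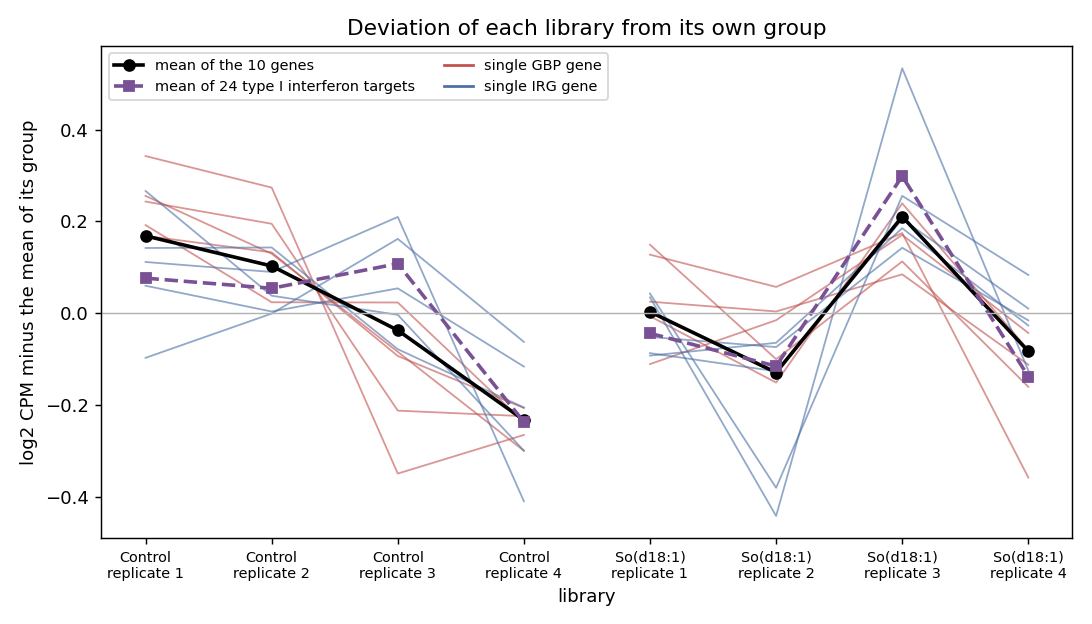
Deviation of each gene's log2 CPM from its group mean in the 8 libraries, with 1 thin line per gene (red for GBP, blue for IRG), a black line for their mean and a dashed line for the mean of the 24 type I interferon targets. The lines only join values, since replicates have no order. Control replicate 4 is low and So(d18:1) replicate 3 high for most of the 10 genes.

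Of 11523 other genes with a well measured level, those whose deviations were most like the mean of the 10 were Parp14 (r = 0.98), H2-T24 (0.97), Tap1 (0.97) and Nfkb2 (0.97), followed by Gm6548 (0.96), Tnfsf10 (0.95), Ifit1bl1 (0.95) and Slfn4 (0.95). Parp14 is an ADP-ribosyltransferase induced by interferon, Tnfsf10 encodes the death ligand TRAIL, and Nfkb2 encodes an NF-κB subunit. With the 2 most extreme libraries left out, r was 0.96 for Parp14, 0.93 for H2-T24, 0.98 for Tap1 and 0.95 for Nfkb2. The median r with the 10 genes was 0.86 over the 9 other IRG genes and 0.85 over the 24 type I targets, against -0.015 over 11547 other genes. Over those 11547 genes r ran from -0.98 to 0.98, so values as strong occurred in the opposite direction, and the genes named above are the highest of many. It was 0.85 over 4 very large inducible GTPases and 0.59 over 13 signal transducers. Over 14 other interferon-γ targets it was lower, at 0.26, with 10 of them positive, and the 1 other GBP gene was at -0.041. These correlations describe 8 libraries and were not tested.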

How the data were processed

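RNA was sequenced from 4 control and 4 So(d18:1) BMDM libraries. Per the submitters' processing notes, the tools of the authors were Trim Galore 0.6.7 for trimming, HISAT2 2.2.1 for alignment to mm10 and featureCounts 2.0.1 for counting. The deposited values are raw counts per Ensembl gene and library. Strand setting and the handling of multiply mapped reads are not given in the sources used here. The members and lists were chosen with earlier results of these data known.

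The model was edgeR 4.0.16 in R 4.3.3, with filterByExpr, TMM scaling and the robust quasi-likelihood test, with Benjamini-Hochberg adjustment at 0.05. DESeq2 1.42.0 and limma-voom (limma 3.58.1) were alternatives. CPM per kb used the deposited gene length, which matched the annotation for 33 of 33 family genes. Log2 CPM used a prior count of 2. Identifiers of 52081 of 55357 genes carried a symbol. Named genes were the 10 members, the tested genes of both families, the called ligand, receptor, transducer and inhibitor genes, up to 4 called genes of each other list by p, and the 8 most alike in within-group deviation. Csf1r, Mertk, Cd68, Cd4, Psmb10, Slamf8, H2-Ab1, Casp4, Aim2, Pf4, Itga2b, Pax5 and the flanking genes were named after their values were seen. On simulated data, the model recovered 75.8% of 1.5-fold and 93.8% of 2-fold changes among 14351 genes tested. The labels do not say whether replicate numbers pair the samples, and the main model took them as unpaired. Plots came from matplotlib 3.10.9 under Python 3.11.15.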

Additional observations from a re-analysis of the deposited data

Results flagged for a closer look

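In a group of 4 libraries, a value was singled out where its gap to the nearest other library exceeded the 95% limit of Dixon's test. Gm12250 in control replicate 4 had a log2 CPM of 3.97, against 4.29 to 4.33 in the other controls. Irgq in the same library had a log2 CPM of 5.43, where the other 3 lay from 5.55 to 5.56. For the type I interferon targets it had a mean log2 CPM of 5.54, where the others lay from 5.83 to 5.89. These were 3 of 52 groups tested, and chance gives about 1 in 20.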

How the results depend on the processing

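The median log2 fold change of the 10 GTPases stayed between 0.15 and 0.29 under every alternative. Between 2 and 6 of them (6 by DESeq2) were called, with 2 when control replicate 4 and So(d18:1) replicate 3 were both left out. Over all genes, 564 were called under the study's rule, 743 without both libraries, and between 815 and 1370 when 1 library was left out, the fewest without So(d18:1) replicate 2. Other IRG genes called numbered 2 without a filter on low counts, 1 with the replicate block, 1 by DESeq2 and 1 under the study's rule, and 0 to 1 when 1 library was left out. Other GBP genes called numbered 0 by limma-voom and 0 to 1 with 1 library left out. Of the pathway genes, 19 were called without a filter, 21 with the replicate block, 5 under the study's rule and 7 without both libraries, and 8 to 14 with 1 library left out, against 11. The replicate block called 1784 genes and 5 members. Correlations of same-numbered libraries lay between -0.0035 and 0.10, and 3 libraries correlated best with their own number. These values do not settle whether the numbers pair the samples. The cause of these differences was not tested. With 4 libraries a group, a two-sided exact permutation test cannot go below 0.0286.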
